A study of Homo sapiens with 12 samples.

Results

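RNA levels of 10 genes of bone morphogenetic protein (BMP) signalling were followed in human neural progenitor cells (NPCs) with and without functional JMJD3 and UTX, the demethylases of histone H3 lysine 27 encoded by KDM6B and KDM6A. The genes are the ligands BMP4, BMP7 and GDF10, the ID genes ID1, ID2, ID3 and ID4, and the feedback inhibitors BAMBI, SMAD6 and SMAD7. They were chosen by name from the 58302 genes in the count tables, after differences between the genotypes had been seen in these same samples. The measured levels that follow therefore describe genes selected on those levels, and no p-value is given for them. All 10 were among the 13454 genes that had on average 20 or more counts per sample, which is the set that was tested.

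The cells were H1, a human embryonic stem cell line, either wild type (WT) or a double knockout (dKO) derived from it. In the dKO, the part of each gene that codes for the catalytic JmjC domain was deleted, first in KDM6B and then in KDM6A. Each of 6 groups had 2 samples: WT and dKO NPCs at passage 2, WT and dKO NPCs at passage 4, and WT and dKO cells after 28 days of differentiation, abbreviated D28. The labels name passage 4 and day 28. Passage 2 is the stage that the study's text gives for the remaining NPCs. Both genotypes were made into neural cells with SB431542, an inhibitor of activin and TGF-β receptors, and dorsomorphin, an inhibitor of BMP type I receptors. NPCs were grown in N2B27 medium with bFGF and EGF, and D28 cells were grown from NPCs without those factors in medium with GDNF, BDNF and cAMP. The labels do not say whether the paired samples came from separate cultures or clones, so the spread between them may be technical. The errors given here come from a single fit that shares the spread of a gene over all 6 groups. They are not the spread of the samples compared. For a group whose samples differ more than the others, such as dKO D28, they can be too small.

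BMP ligands are secreted proteins that bind receptor pairs at the cell surface, after which SMAD1, SMAD5 and SMAD9 are phosphorylated and enter the nucleus with SMAD4. The ID genes are well known direct targets, and their products bind E proteins and keep them and proneural factors from binding DNA. SMAD6 and SMAD7, the inhibitory SMADs, and BAMBI, a receptor-like protein without a kinase domain, are also induced by the pathway and dampen it. In the developing nervous system, BMPs from the roof plate pattern the dorsal side, and inhibition of BMP signalling favours the formation of neural tissue from embryonic stem cells.

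The 250 bases before the annotated start are shown for the ID genes ID1, ID3 and ID4, for BAMBI and for GDF10. Regions further upstream were not searched. A window without a match therefore does not show that a gene lacks SMAD motifs in its regulatory regions. The sequences are from RefSeq on GRCh38.p14, are written in the direction of transcription, and were not measured here. Capitals mark letters that match 1 of 4 short motifs on either strand: GGCGCC, a GC-rich SMAD-binding motif, CAGAC, which holds the core SMAD box, and the E-box versions CACGTG and CAGCTG, which are bound by basic helix-loop-helix proteins. No marked matches shared a base. The ID1 window is chr20:31605039-31605288 on the plus strand, the ID3 window is chr1:23559502-23559751 on the minus strand, the ID4 window is chr6:19837120-19837369 on the plus strand, the BAMBI window is chr10:28677271-28677520 on the plus strand and the GDF10 window is chr10:47299947-47300196 on the plus strand.
ID1: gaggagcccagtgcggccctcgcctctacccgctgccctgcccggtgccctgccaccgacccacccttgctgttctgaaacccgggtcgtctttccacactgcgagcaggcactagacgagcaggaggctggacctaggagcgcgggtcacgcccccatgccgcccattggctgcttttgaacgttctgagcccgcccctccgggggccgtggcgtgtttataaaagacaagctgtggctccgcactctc
ID3: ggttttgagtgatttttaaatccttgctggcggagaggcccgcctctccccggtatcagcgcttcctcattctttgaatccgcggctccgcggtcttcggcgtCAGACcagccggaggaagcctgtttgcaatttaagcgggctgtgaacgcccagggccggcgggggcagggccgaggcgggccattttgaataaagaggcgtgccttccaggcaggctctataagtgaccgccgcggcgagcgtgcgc
ID4: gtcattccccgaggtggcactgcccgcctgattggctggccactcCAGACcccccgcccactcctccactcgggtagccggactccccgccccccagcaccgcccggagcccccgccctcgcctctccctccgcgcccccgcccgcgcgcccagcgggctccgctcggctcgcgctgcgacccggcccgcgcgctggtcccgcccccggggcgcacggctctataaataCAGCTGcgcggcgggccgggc
BAMBI: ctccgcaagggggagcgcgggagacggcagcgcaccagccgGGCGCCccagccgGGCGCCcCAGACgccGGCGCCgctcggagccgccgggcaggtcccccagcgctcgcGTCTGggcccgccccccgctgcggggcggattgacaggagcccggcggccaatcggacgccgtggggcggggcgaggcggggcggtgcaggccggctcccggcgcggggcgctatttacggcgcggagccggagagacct
GDF10: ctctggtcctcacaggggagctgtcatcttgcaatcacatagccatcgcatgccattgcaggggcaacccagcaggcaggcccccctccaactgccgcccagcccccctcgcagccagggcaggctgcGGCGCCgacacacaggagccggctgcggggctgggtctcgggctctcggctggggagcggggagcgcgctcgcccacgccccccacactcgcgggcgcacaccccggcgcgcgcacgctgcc

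BAMBI had 3 GGCGCC and 2 CAGAC matches in its window, GDF10 had 1 GGCGCC, ID3 had 1 CAGAC, ID4 had 1 CAGAC and 1 CAGCTG, and ID1 had none. RefSeq windows of 300 bases, which run on to 50 bases after the start, were matched to 9 of the 10 genes, with 13 entries because BMP4 and SMAD7 have 3 starts each. BMP7 was not matched. GGCGCC was present in 3 of the 13 entries and in 19.2% of 35116 human promoter windows of the same length. CAGAC was present in 8 of the 13 entries and in 45.3% of all windows, CACGTG in 1 of 13 and 7.26%, and CAGCTG in 2 of 13 and 17.9%. A match is a description of letters and not a binding site.

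Library depth was lowest at passage 2. Totals lay between 756942 and 1438807 counts at passage 2, between 3174410 and 4220037 at passage 4 and between 4082248 and 10601172 at D28, and levels are given as CPM, counts scaled to library size with TMM factors. The value of 3 counts was 3.92 CPM in the shallowest library and 0.302 CPM in the deepest. Differences between paired samples were 1.55 to 3.30 times what counting noise gives, as chi-square per degree of freedom, in 5 groups and 14 times in dKO D28, whose pair therefore stands apart. Counts of KDM6A and KDM6B do not check the genotypes, because only part of each gene is deleted. KDM6A was at 27.7 to 39.8 CPM in dKO NPCs and 50.4 to 61.4 CPM in WT NPCs, whereas KDM6B was at 155 to 188 CPM and 117 to 184 CPM. The neural progenitor markers SOX1, SOX2, PAX6, NES, FABP7 and VIM were detected in every group, with summed levels of 3273 to 7520 CPM. VIM was the largest part, at 1852 to 4865 CPM, and the sums hide differences between the genotypes. At passage 4 FABP7 was at 1884 and 1720 CPM in WT against 87.1 and 79.2 CPM in dKO, and SOX2 at 491 and 515 CPM against 223 and 218 CPM. At D28 FABP7 was at 413 and 427 CPM in WT against 178 and 43.8 CPM in dKO, but PAX6 at 11.9 and 11.7 CPM against 190 and 356 CPM. The pluripotency markers POU5F1 and NANOG had 0 counts in all 12 samples. Of the other 2 pluripotency markers listed, TDGF1 had 3 counts in a single dKO D28 sample and 0 elsewhere, whereas DPPA4 was at 43.1 and 30.6 CPM in WT against 18.8 and 10.6 CPM in dKO at passage 2, at 14.1 and 5.98 CPM in dKO D28 and at most 3.92 CPM in the other groups. In bulk RNA, fewer cells of a type and less RNA per cell cannot be told apart.

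**Figure D1:**
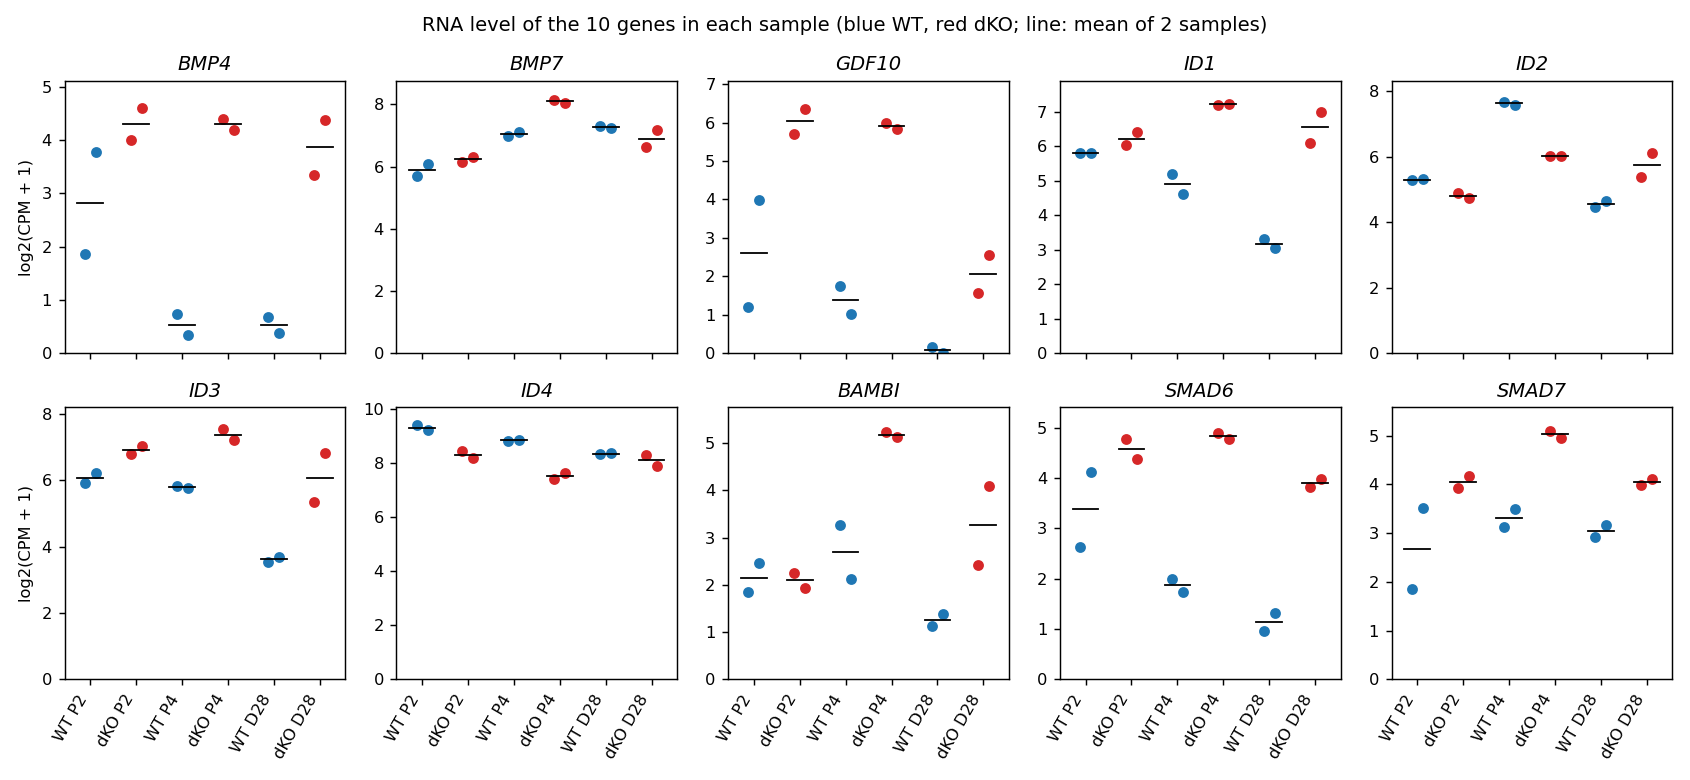
Level of each of the 10 genes in each of the 12 samples, as log2(CPM + 1), for WT (blue) and dKO (red) at passage 2 (P2), passage 4 (P4) and D28. The black line is the mean of the 2 samples of a group. BMP4, ID1, ID3, SMAD6 and BAMBI were lower in both WT samples than in both dKO samples at passage 4 and at D28, whereas ID2 and ID4 were higher in WT at passage 4.

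Among the ligands, BMP4 and GDF10 were far more abundant in dKO than in WT cells at passage 4 and D28, while BMP7 differed by about the fold threshold or less. BMP4, a ligand of the dorsal neural tube and epidermis, was at 2.61 and 12.7 CPM in WT against 15.0 and 23.3 CPM in dKO NPCs at passage 2. It was at 0.668 and 0.257 CPM in WT against 20.1 and 17.2 CPM in dKO at passage 4, and at 0.60 and 0.302 CPM in WT against 9.21 and 19.7 CPM in dKO at D28. Thus WT cells were low at the later stages, dKO cells stayed high, and the genotypes did not overlap at any stage. With 2 samples in each group, 2 pairs can easily lie apart by chance. The share of all tested genes without overlap was not counted, here or for the genes below, so a lack of overlap only describes the samples. At passage 2 the log2 fold change of dKO against WT was 1.13 ± 0.55 (SE), which was not called. A call required a fold change above 2 and, in edgeR's quasi-likelihood test, an unadjusted p below 0.05. The value at passage 2 was 0.60 without WT replicate 1 and 2.87 without WT replicate 2, and the latter was called. At passage 4 WT held only 3 counts in all against 156 in dKO, a ratio of 42.9 with a 95% counting interval of 14.4 to 210. At D28 the log2 fold change was 4.97 ± 0.54, and BMP4 was called.

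GDF10, also known as BMP3B, a divergent ligand of the family, had the widest range of the 10 genes. It was at 1.31 and 14.9 CPM in WT against 51.0 and 81.3 CPM in dKO at passage 2, and at 2.34 and 1.03 CPM in WT against 62.1 and 55.9 CPM in dKO at passage 4. D28 samples had 0.120 and 0 CPM in WT against 1.94 and 4.82 CPM in dKO. Every dKO sample lay above every WT sample of its stage, but the dKO level at D28 was below that of dKO NPCs. The log2 fold change was 2.77 ± 0.53 at passage 2 and 5.17 ± 0.54 at passage 4. The WT samples at passage 2 were far apart, and the value at that stage was 5.64 without WT replicate 2. At D28 dKO held 33 counts and WT 1, a ratio of 64.8 with a 95% counting interval of 10.8 to 2635.

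BMP7, a ligand expressed in many neural tissues, was at 50.9 and 66.3 CPM in WT against 70.6 and 77.8 CPM in dKO at passage 2. It was at 127 and 137 CPM in WT against 280 and 266 CPM in dKO at passage 4, and at 158 and 150 CPM in WT against 97.4 and 144 CPM in dKO at D28. The dKO samples were therefore higher at both passages and lower at D28, without overlap, which pairs of samples can also show by chance. The log2 fold changes were 0.31 ± 0.21, 1.05 ± 0.15 and -0.35 ± 0.14 in that order, and BMP7 was called higher at passage 4 only. That call sits at the fold threshold: the value was 1.00 without WT replicate 1 at passage 4 and 0.79 once GC content and transcript length were corrected for, and the call was lost in both cases.

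The 4 ID genes did not move together. ID1 and ID3 were higher in dKO at passage 4 and D28, ID2 was lower in dKO at passage 4 and higher at D28, and ID4 was lower in dKO at passage 4. ID1 was at 54.8 and 55.2 CPM in WT against 64.6 and 83.4 CPM in dKO at passage 2, at 35.7 and 23.6 CPM in WT against 146 and 149 CPM in dKO at passage 4, and at 8.88 and 7.24 CPM in WT against 67.6 and 127 CPM in dKO at D28. The dKO samples were above the WT samples at each stage, and the WT samples were lower at passage 4 than at passage 2 and lowest at D28. The log2 fold change of ID1 was 0.43 ± 0.35 at passage 2 and was not called, and was 2.33 ± 0.29 at passage 4 and 3.60 ± 0.30 at D28, both called.

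ID3 was at 58.7 and 73.8 CPM in WT against 110 and 129 CPM in dKO at passage 2, at 55.8 and 52.9 CPM in WT against 183 and 147 CPM in dKO at passage 4, and at 10.6 and 12 CPM in WT against 39.3 and 111 CPM in dKO at D28. Again no dKO sample overlapped with WT, but the dKO pair at D28 was wide. For ID3 the log2 fold change was 0.82 ± 0.51, 1.61 ± 0.42 and 2.75 ± 0.45 in that order, called at passage 4 and D28. The D28 value was 1.79, still called, without dKO replicate 2.

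ID2 was at 37.9 and 38.8 CPM in WT against 28.5 and 25.5 CPM in dKO at passage 2, and at 205 and 192 CPM in WT against 64.2 and 64.5 CPM in dKO at passage 4. At D28 the order was turned around, with 20.9 and 24.1 CPM in WT against 40.7 and 68.9 CPM in dKO. The high point of ID2 was thus the WT NPCs at passage 4, which no other group reached. The log2 fold change was -0.51 ± 0.29 at passage 2, not called, -1.62 ± 0.17 at passage 4 and 1.29 ± 0.18 at D28, both called. The call at D28 was lost without dKO replicate 2 of D28, where the value was 0.85. An antisense transcript, ID2-AS1, shares 145 exonic bases with ID2. It had at most 10 counts in any sample, and whether the counting used strand is not stated.

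ID4 was at 668 and 590 CPM in WT against 348 and 288 CPM in dKO at passage 2, and at 453 and 459 CPM in WT against 169 and 199 CPM in dKO at passage 4. At D28 it was at 322 and 328 CPM in WT against 316 and 237 CPM in dKO. The dKO samples were lower at each stage, by the least at D28. The log2 fold change was -0.98 ± 0.14 at passage 2, just inside the fold threshold and not called, -1.31 ± 0.14 at passage 4, called, and -0.23 ± 0.13 at D28, not called. At passage 2 it was called without WT replicate 2, where it was -1.07, and without dKO replicate 1, where it was -1.13.

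The feedback inhibitors were higher in dKO at passage 4 and D28, with the largest fold changes for SMAD6. SMAD6, which interferes mainly with BMP receptor signalling, was at 5.22 and 16.4 CPM in WT against 26.3 and 19.8 CPM in dKO at passage 2, at 3.01 and 2.31 CPM in WT against 28.8 and 26.2 CPM in dKO at passage 4, and at 0.960 and 1.51 CPM in WT against 13.1 and 14.9 CPM in dKO at D28. The genotypes did not overlap at any stage, and the WT values at passage 2 were the closest to dKO. The log2 fold change was 0.93 ± 0.38 at passage 2, not called, 3.38 ± 0.35 at passage 4 and 3.45 ± 0.34 at D28, both called. At passage 2 it was 0.49 without WT replicate 1 and 2.13, called, without WT replicate 2.

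SMAD7, which inhibits BMP as well as TGF-β receptors, was at 2.61 and 10.4 CPM in WT against 14.3 and 17.0 CPM in dKO at passage 2, at 7.68 and 10.3 CPM in WT against 33.3 and 29.9 CPM in dKO at passage 4, and at 6.60 and 7.95 CPM in WT against 14.8 and 16.2 CPM in dKO at D28. Its dKO samples were above WT throughout, and its WT values at passage 4 and D28 overlapped. The log2 fold changes were 1.07 ± 0.42, 1.80 ± 0.26 and 1.09 ± 0.25, all called. At passage 2 WT replicate 1 held only 2 counts of SMAD7. The call at that stage was lost without it, at 0.58, and without dKO replicate 2, at 0.93, and the value was 2.57 without WT replicate 2. The call at D28 was lost without WT replicate 1, at 0.96.

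BAMBI was at 2.61 and 4.47 CPM in WT against 3.75 and 2.83 CPM in dKO at passage 2, at 8.69 and 3.34 CPM in WT against 36.3 and 33.8 CPM in dKO at passage 4, and at 1.20 and 1.61 CPM in WT against 4.36 and 16.0 CPM in dKO at D28. The genotypes overlapped at passage 2, where no sample had more than 6 counts, and were apart later. Its log2 fold change was -0.20 ± 1.15 at passage 2, not called, 2.60 ± 0.50 at passage 4 and 2.86 ± 0.57 at D28, both called. The D28 value was 1.60, still called, without dKO replicate 2.

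**Figure D2:**
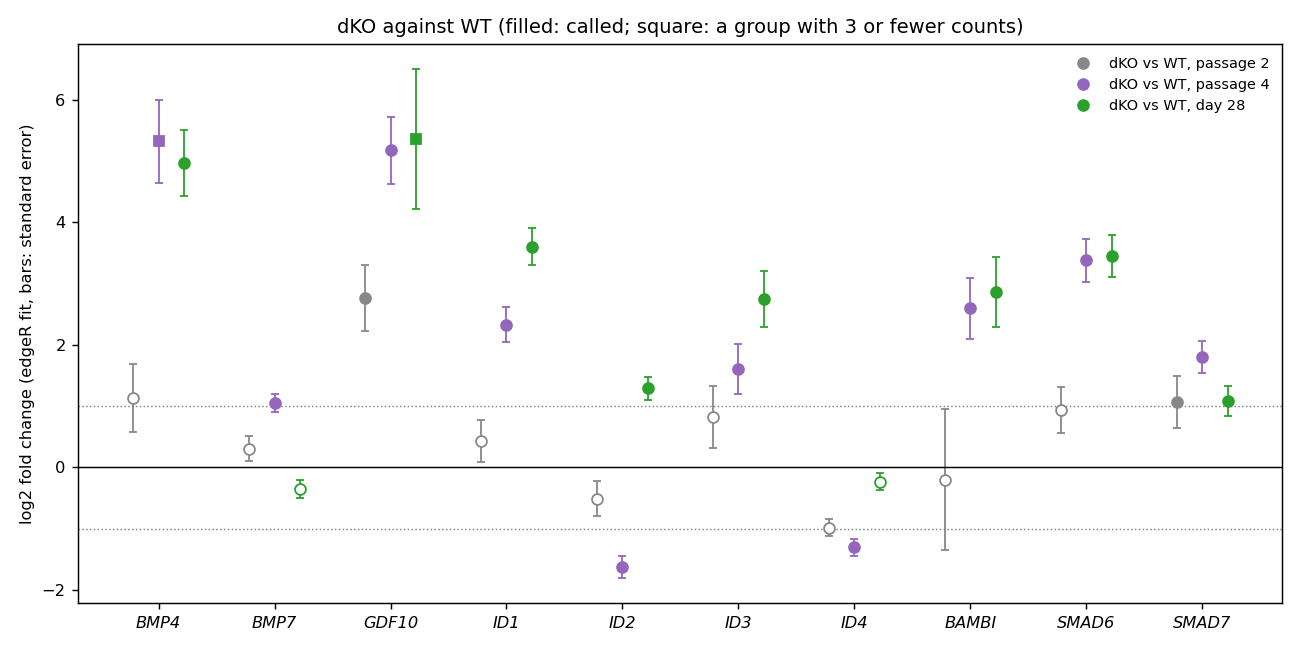
Log2 fold change of dKO against WT for each gene at passage 2 (grey), passage 4 (purple) and D28 (green), with standard errors from the edgeR fit. Filled symbols were called, squares mark comparisons in which a group held 3 or fewer counts, and dotted lines are the fold threshold. ID2 and ID4 lie below 0 at passage 4, where the other 8 genes lie above it, and all 8 genes called at D28 lie above 0.

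Counted over the 10 genes, dKO against WT gave 2 higher and 0 lower at passage 2, where 2.59% of all tested genes were called higher and 1.83% lower. The pair was GDF10 and SMAD7. At passage 4 it gave 8 higher and 2 lower, against 11.1% and 11.2% of all tested genes. At D28 it gave 8 higher and 0 lower, against 12.4% and 11.7%, and BMP7 and ID4 were not called. The median log2 fold change of the 10 genes was 0.63 at passage 2, 2.06 at passage 4 and 2.80 at D28, and that of all tested genes was 0.00, 0.02 and 0.00. Since the genes were selected on these contrasts, the counts are given as a description. With a Benjamini-Hochberg adjusted p in place of the unadjusted one, 1 gene was called at passage 2 and the counts at passage 4 and D28 were the same.

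Some markers of other cell types moved with these differences. The summed level of 7 roof plate and choroid plexus markers (LMX1A, WNT1, WNT3A, TTR, CLIC6, KCNE2 and AQP1) was 2.4 to 8.4 CPM in all WT samples and in dKO NPCs at passage 2, 64.6 to 69.2 CPM in dKO at passage 4 and 21.1 to 28.9 CPM in dKO D28. LMX1A, WNT1 and TTR had 0 counts in WT at passage 2, and LMX1A and WNT3A in WT D28. Only LMX1A and CLIC6 passed the count filter, and both were called higher in dKO at passage 4 and D28, where 11.1% and 12.4% of all tested genes were. They passed through their dKO counts, 260 and 76 for LMX1A and 147 and 82 for CLIC6 at passage 4 and D28. A call as higher in dKO was thus favoured by the filter and is only a description. Together with WNT3A, LMX1A and CLIC6 made up most of the dKO sum at passage 4. The choroid plexus markers TTR, KCNE2 and AQP1 were at 0 to 2.34 CPM in both genotypes there. The summed level of 7 mesenchyme markers (COL1A1, COL1A2, COL3A1, LUM, DCN, PDGFRB and TWIST1) was 151 to 380 CPM in WT against 861 to 1039 CPM in dKO at passage 2, 252 to 261 CPM and 1721 to 1741 CPM at passage 4, and 196 to 208 CPM and 297 to 406 CPM at D28. COL1A1 and COL1A2 made up most of the dKO sums. At D28, 3 of the 5 tested mesenchyme markers were called higher in dKO and 2 lower, where 12.4% and 11.7% of all tested genes were. The 2 called lower were COL3A1 at -2.10 ± 0.35 and PDGFRB at -1.81 ± 0.31 on the log2 scale. DCN had 0 counts in both genotypes at passage 2.

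Neuronal and astrocyte markers were lower in dKO at passage 4 and D28. Summed neuronal markers (MAP2, TUBB3, DCX, RBFOX3, STMN2, SNAP25 and SYT1) were at 4116 to 4668 CPM in WT against 787 to 818 CPM in dKO at passage 4, and at 3470 CPM in both WT samples and 610 to 1058 CPM in dKO at D28. All 6 tested neuronal markers were called lower in dKO at both stages, where 11.2% and 11.7% of all tested genes were. Summed astrocyte markers (GFAP, AQP4, S100B, ALDH1L1 and SLC1A3) were at 1835 to 1992 CPM in WT against 28.1 to 35.6 CPM in dKO at passage 4. SLC1A3 alone made up nearly all of the WT sum, with 1781 and 1946 CPM against 16.4 and 19.9 CPM in dKO. GFAP was at 21.7 and 23.6 CPM in WT against 6.32 and 9.81 CPM in dKO. All 4 tested astrocyte markers were called lower in dKO there, where 11.2% of all tested genes were. At D28 the astrocyte sum was 301 to 306 CPM in WT against 23.5 to 25.2 CPM in dKO. At passage 2 the neuronal sum was 1146 to 1302 CPM in WT against 945 to 1026 CPM in dKO. The astrocyte sum was then 86.5 to 108 CPM against 24.8 to 38.3 CPM. WT NPCs at passage 4 thus held more neuronal and astrocyte marker RNA than WT cells at passage 2 or at D28. Of the neural crest markers SOX10, FOXD3, TFAP2A and PAX3, which summed to 0 to 3.60 CPM in all WT samples and 35.3 to 35.4 CPM in dKO at passage 4, PAX3 alone made up nearly all of the dKO sum, with 32.1 and 33.1 CPM. TFAP2A was at 1.34 and 3.60 CPM in WT against 2.58 and 1.72 CPM in dKO at passage 4, and SOX10 and FOXD3 had at most 3 counts in either group. At D28 the sum in dKO was 11.2 to 63.9 CPM, from PAX3 and TFAP2A, and FOXD3 had 0 counts. Likewise KDR carried the sum of the 5 endothelial markers (PECAM1, CDH5, KDR, TEK and CLDN5) in dKO at passage 4, with 80.6 and 86.8 of 87.6 to 93.2 CPM, against a sum of 5.0 to 5.1 CPM in WT. It was the single endothelial marker tested, and CDH5 was at 0.234 and 0.245 CPM in dKO. The part of any of these cell types in the levels of the BMP genes was not tested.

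The course within each genotype differed. From passage 2 to D28, WT cells lost BMP4, GDF10, ID1, ID3 and SMAD6 and gained BMP7, which is 5 genes called lower and 1 higher, where 11.5% and 12.9% of all tested genes were called. In dKO cells over the same interval GDF10 was called lower and ID2 higher, where 3.14% and 4.01% of all tested genes were called. The WT log2 fold changes were -4.23 ± 0.77 for BMP4, -2.77 ± 0.38 for ID1, -2.58 ± 0.55 for ID3 and -3.23 ± 0.46 for SMAD6. The same values in dKO were -0.39 ± 0.42, 0.40 ± 0.29, -0.66 ± 0.43 and -0.71 ± 0.30, none of them called. Without dKO replicate 2 of D28, however, BMP4 and ID3 were called lower in dKO, at -1.06 and -1.61. GDF10 was low at D28 in both genotypes, and its dKO log2 fold change was -4.23 ± 0.47. WT held 21 counts at passage 2 and 1 at D28, a ratio of 182 with a 95% counting interval of 29.3 to 7529. That interval leaves out the spread between samples, and 20 of the 21 counts were in WT replicate 2. BMP7 was at 1.36 ± 0.18 in WT and 0.71 ± 0.17 in dKO. ID2 was at -0.77 ± 0.25 in WT, not called, and 1.03 ± 0.24 in dKO, a call that was lost without dKO replicate 2 of D28, at 0.59, and without dKO replicate 2 at passage 2, at 0.95.

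From passage 2 to passage 4, 2 genes were called higher and 3 lower in WT, where 10.3% and 9.49% of all tested genes were called. BMP7 rose by 1.13 ± 0.19 and ID2 by 2.37 ± 0.22 on the log2 scale, and BMP4, GDF10 and SMAD6 were called lower, at -4.23 ± 0.92, -2.58 ± 0.87 and -2.18 ± 0.47. BMP4 had only 3 counts in WT at passage 4. GDF10 also lost its call without WT replicate 2 at passage 4, at -2.04. In dKO, 4 genes were called higher and 0 lower over the same interval, where 4.61% and 5.22% of all tested genes were called. These were BAMBI at 3.41 ± 0.68, BMP7 at 1.88 ± 0.17, ID2 at 1.25 ± 0.24 and SMAD7 at 1.01 ± 0.28, whereas BMP4 and GDF10 were at -0.04 ± 0.41 and -0.17 ± 0.35. The call of SMAD7 lay at the threshold and was lost under several alternatives, with values down to 0.89. ID1 was at -0.91 ± 0.36 in WT and 0.99 ± 0.28 in dKO, neither called, and without WT replicate 1 at passage 4 the WT value was -1.22 and called.

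Several of these WT values rest on the passage 2 pair, in which replicate 2 had 17 counts of BMP4 and 20 of GDF10 and replicate 1, the shallower library, had 2 and 1. Without WT replicate 2 at passage 2, the WT change to passage 4 was -2.50 for BMP4, 0.29 for GDF10 and -0.99 for SMAD6, none of them called. The WT change to D28 was then -2.49 for BMP4 and -3.98 for GDF10, not called, and -2.03 for SMAD6, still called. The call of BMP7 in WT was lost without WT replicate 1 at passage 2, at 0.99.

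**Figure D3:**
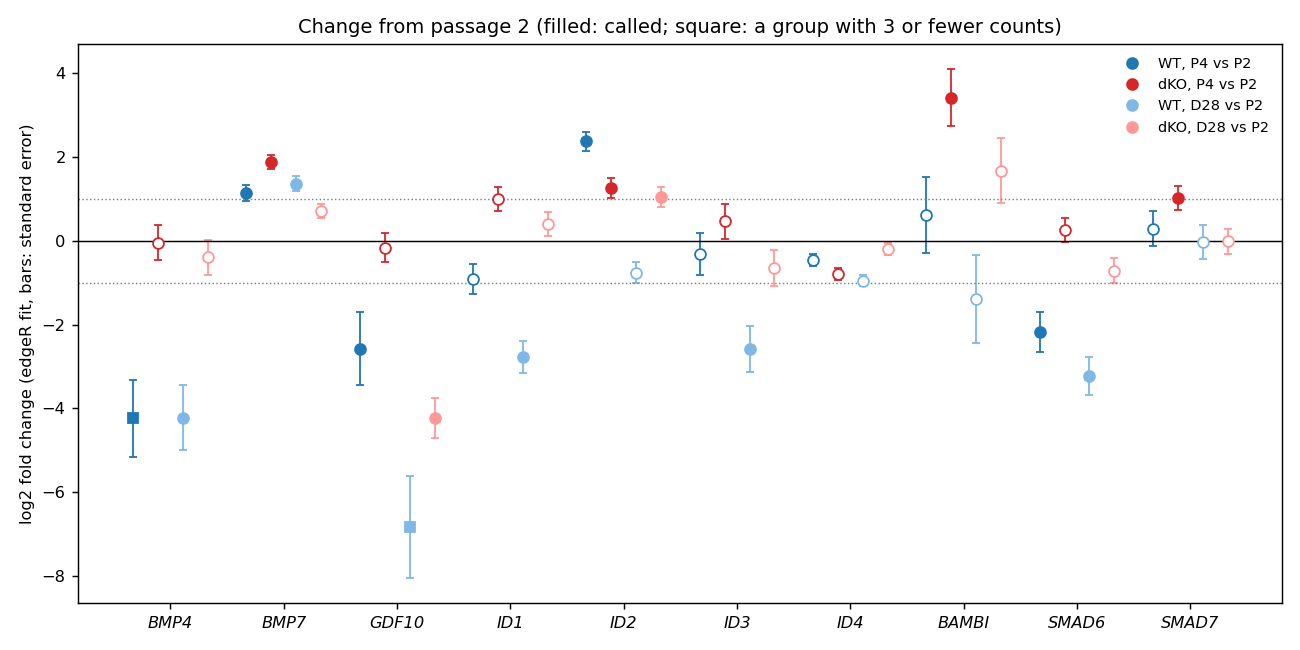
Log2 fold change from passage 2 to passage 4 (dark colours) and from passage 2 to D28 (light colours) within WT (blue) and dKO (red), with standard errors from the edgeR fit. Filled symbols were called and squares mark comparisons in which a group held 3 or fewer counts. For BMP4 and SMAD6 the dKO points lie between -0.71 and 0.26 and the WT points below -2, and ID2 rose at passage 4 in both genotypes.

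The difference between the dKO and WT courses was read from an interaction term of the same fit. For the interval to D28, 6 of the 10 genes were called with a higher term and 0 with a lower one, against 12% and 11.1% of all tested genes. The terms were 3.83 ± 0.86 for BMP4, 3.17 ± 0.47 for ID1, 1.80 ± 0.34 for ID2, 1.92 ± 0.69 for ID3, 2.52 ± 0.54 for SMAD6 and 3.06 ± 1.35 for BAMBI on the log2 scale. ID3 and BAMBI lost their calls in 5 and 9 of the 12 fits that left out a sample, and their terms were 0.98 and 1.80 without dKO replicate 2 of D28. The terms of BMP4 and SMAD6 lost theirs without WT replicate 2 at passage 2, at 2.10 and 1.32. The term of GDF10 was 2.59 ± 1.46 and that of SMAD7 0.02 ± 0.50, neither called.

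For the interval to passage 4, 4 genes were called with a higher term and 1 with a lower one, against 9.72% and 9.57% of all tested genes. The higher terms were 4.19 ± 1.02 for BMP4, 2.41 ± 0.93 for GDF10, 1.90 ± 0.46 for ID1 and 2.44 ± 0.55 for SMAD6, and the lower term was -1.11 ± 0.34 for ID2. Thus the ID2 term was below 0 for passage 4 and above 0 for D28, while that of ID1 was above 0 for both. Without WT replicate 2 at passage 2 the terms of BMP4, GDF10 and SMAD6 were 2.46, -0.46 and 1.25, none of them called. The call of GDF10 was also lost without WT replicate 2 or dKO replicate 1 at passage 4, at 1.87 and 2.31, and with DESeq2, at 2.20. Once GC content and transcript length were corrected for, the ID2 term was -0.73 and was not called.

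Ordered by mean level over the 6 groups, WT D28 was the lowest group for BMP4, GDF10, ID1, ID2, ID3, BAMBI and SMAD6, WT at passage 2 was the lowest for BMP7 and SMAD7, and dKO at passage 4 was the lowest for ID4. The highest group was dKO at passage 4 for BMP7, ID1, ID3, BAMBI, SMAD6 and SMAD7, dKO at passage 2 for BMP4 and GDF10, WT at passage 4 for ID2 and WT at passage 2 for ID4. Neighbouring groups in these orders overlapped for each gene in at least 1 pair. The overlaps listed here are between neighbours only. Groups further apart in an order could overlap too, as WT passage 2 and WT passage 4 did for GDF10 and SMAD7. WT D28 overlapped with WT passage 4 for BMP4 and SMAD7, and WT passage 2 overlapped with WT D28 for SMAD7 and with WT passage 4 for BAMBI. The dKO groups at passage 2 and passage 4 overlapped for BMP4, GDF10 and SMAD6, those at passage 4 and D28 for BMP4 and ID2, and those at passage 2 and D28 for ID1, ID3, ID4 and SMAD7. Between the genotypes, dKO D28 overlapped with WT passage 2 for BMP4, GDF10, ID3 and SMAD6 and with WT passage 4 for BMP7, GDF10 and BAMBI. For ID4, dKO passage 2 overlapped with WT D28, and for BAMBI the genotypes overlapped at passage 2.

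Per kilobase of merged annotated exons, ID4 spanned 47.6 to 163 CPM per kb over the 6 group means, ID1 6.54 to 120, ID3 7.53 to 110 and ID2 10.2 to 89.7. The ligand BMP7 spanned 10.8 to 50.3 CPM per kb, GDF10 0.0224 to 24.7 and BMP4 0.146 to 6.19. Of the inhibitors, BAMBI was at 0.657 to 16.4, SMAD7 at 1.65 to 8.01 and SMAD6 at 0.144 to 3.22 CPM per kb. By this measure the ID transcripts were the most abundant of the 10 at their highest, and SMAD6 was the least. The order depends on the length used, which was 8556 bases for SMAD6. In CPM without length, the highest group mean of SMAD6 was 27.5 against 19.2 for BMP4, and that of BMP7 was 273 against 198 for ID2.

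Across the 12 samples, which share the 6 groups and differ in depth, the 10 genes fell into unequal patterns of log2 CPM. Pearson's r was 0.96 between BMP4 and SMAD6, 0.93 between ID1 and ID3, 0.91 between ID1 and SMAD6 and 0.91 between GDF10 and SMAD6. ID4 ran against others, with r of -0.84 to SMAD7 and -0.78 to BMP7. Of all tested genes, the one most like BMP4 was LDLRAD2 (r = 0.97), and those most like the other ligands were WLS for BMP7 (r = 0.98) and STC1 for GDF10 (r = 0.96). For the ID genes they were MXRA5 for ID1 (r = 0.99), LGALS3 for ID2 (r = 0.96), CANT1 for ID3 (r = 0.97) and CREB5 for ID4 (r = 0.97). For the inhibitors they were TPBG for BAMBI (r = 0.94), BRIX1 for SMAD6 (r = 0.98) and FOXC1 for SMAD7 (r = 0.95). The second most alike were LSR, CHPF, ITGB1, CYBA, RTN4RL2, DOCK1, PSMA3-AS1, SLC3A2, PDIA6 and WIPI1 for BMP4, BMP7, GDF10, ID1, ID2, ID3, ID4, BAMBI, SMAD6 and SMAD7.

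The other genes of the BMP pathway were counted in the same way. Of 63 other listed genes, 39 were tested, and dKO against WT gave 2 higher and 1 lower at passage 2, 10 higher and 8 lower at passage 4, and 10 higher and 5 lower at D28. As shares of the 39 genes these were 5.13% and 2.56%, 25.6% and 20.5%, and 25.6% and 12.8%, against 2.59% and 1.83%, 11.1% and 11.2%, and 12.4% and 11.7% of all tested genes. Their median log2 fold change was -0.07, 0.18 and 0.25 in that order. The list includes every role from ligands to E proteins, and it was written with earlier results of these data known. Genes given below with an adjusted p were picked for having the largest called changes, so those values describe them and are not a separate test.

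Other ligands were mostly too low to be tested, with 3 of 13 passing the count filter. GDF7, a roof plate ligand, was at 2.34 and 2.05 CPM in WT against 53.6 and 53.5 CPM in dKO at passage 4, and rose by 4.60 ± 0.68 on the log2 scale (adjusted p = 0.000504). At D28 it was at 2.04 and 2.11 CPM in WT against 5.58 and 21.4 CPM in dKO. BMP2, a ligand close in sequence to BMP4, was at 6.68 and 5.91 CPM in WT against 34.7 and 43.7 CPM in dKO at passage 4, and at 2.64 and 2.41 CPM in WT against 16.2 and 29.7 CPM in dKO at D28. It was called at both stages, and its interaction term for passage 4 was 2.44 ± 0.58 (adjusted p = 0.00626). BMP8B was at 2.61 and 4.47 CPM in WT NPCs at passage 2 and 9.0 and 10.4 CPM in WT D28, a rise of 1.36 ± 0.42 (adjusted p = 0.0144). At D28 dKO had 5.09 and 4.25 CPM of BMP8B, which was 2.08-fold lower than in WT (adjusted p = 0.00331). Thus of the 3 other ligands tested, BMP2 and GDF7 were higher in dKO at both later stages and BMP8B was not.

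Of 8 tested receptors and co-receptors, 1 was called lower at passage 2, where 1.83% of all tested genes were. At passage 4, 4 were called lower, where 11.2% of all tested genes were. At D28, 2 were called higher and 2 lower, where 12.4% and 11.7% of all tested genes were. BMPR1B, a BMP type I receptor, was at 67.9 and 45.5 CPM in WT against 27 and 19.1 CPM in dKO at passage 2, a log2 fold change of -1.26 ± 0.30 (adjusted p = 0.0292) that was -0.98 and not called without WT replicate 1. At D28 its order was turned around, with 4.20 and 5.73 CPM in WT against 26.7 and 17.9 CPM in dKO. RGMA, a co-receptor, was at 515 and 521 CPM in WT against 107 and 113 CPM in dKO at D28, and fell by 2.23 ± 0.12 on the log2 scale (adjusted p = 3.14e-10). BMPR2, the type II receptor, rose in WT from 82.2 and 75.3 CPM at passage 2 to 210 and 255 CPM at passage 4 and was at 108 and 101 CPM and then 93.5 and 94.2 CPM in dKO, an interaction term of -1.73 ± 0.20 (adjusted p = 1.89e-05).

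The SMADs that carry the signal and their ubiquitin ligases, SMAD1, SMAD5, SMAD9, SMAD4, SMURF1 and SMURF2, were all tested. Of these 6, 0 were called at passage 2 and D28 and 1, SMAD9, was called lower at passage 4. Over all tested genes, 2.59% were called higher and 1.83% lower at passage 2, 11.1% and 11.2% at passage 4, and 12.4% and 11.7% at D28. The same shares stand beside the counts of antagonists, corepressors and proteases that follow. Of 7 tested extracellular antagonists, 0 were called at passage 2, 3 were higher and 1 lower at passage 4, and 2 were higher at D28. CHRDL1, a chordin-like antagonist, was at 85.9 and 85.8 CPM in WT against 15.9 and 16.2 CPM in dKO at passage 4, and fell by 2.42 ± 0.20 (adjusted p = 5.68e-08). NBL1, an antagonist of the DAN family, was at 0.480 and 0.604 CPM in WT against 7.51 and 9.65 CPM in dKO at D28, and its interaction term for D28 was 4.94 ± 0.80 (adjusted p = 0.000226). Of the 5 nuclear corepressors tested, 1 was lower at passage 4 and 1 higher at D28. ZEB2, a SMAD-binding repressor, was at 228 and 256 CPM in WT against 41.2 and 41.4 CPM in dKO at passage 4, and fell by 2.55 ± 0.12 (adjusted p = 1.71e-10). Of the 2 proteases of the BMP1 and tolloid family tested, 1 was higher at passage 2, 2 were higher at passage 4 and 1 was lower at D28. TLL2, a tolloid-like protease, had 2 counts in WT NPCs at passage 2 and 320 in WT D28, a ratio of 18.5 with a 95% counting interval of 5.07 to 153.

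Of the 5 other BMP targets tested, 1 was called higher at passage 2, 3 at passage 4 and 3 at D28, where 1 was lower. The shares of all tested genes called higher were 2.59%, 11.1% and 12.4% in that order, and 11.7% were called lower at D28. MSX2, a homeobox gene of the dorsal neural tube, was at 2.00 and 1.03 CPM in WT against 88.5 and 85.3 CPM in dKO at passage 4, and rose by 5.87 ± 0.72 (adjusted p = 0.000422). At D28 it had 0 counts in WT and 89 in dKO, where the samples were at 2.91 and 14.9 CPM. With 3 counts over the WT group as the floor, the ratio of the summed counts was 58.2. That value covers counting error only, and most of it comes from dKO replicate 2. ATOH8, a basic helix-loop-helix gene, was at 0.60 and 1.61 CPM in WT against 31.0 and 14.7 CPM in dKO at D28, and rose by 4.26 ± 0.42 (adjusted p = 2.86e-06). MSX1 rose in dKO from 4 counts at passage 2 to 29.5 and 30.2 CPM at passage 4, by 4.33 ± 0.69 (adjusted p = 0.000759). Replicate 2 held all 4 of those counts, so the fold rests on that sample. DLX5 went the other way at D28, with 49.4 and 53.7 CPM in WT against 17.0 and 12.2 CPM in dKO, and fell by 1.84 ± 0.18 (adjusted p = 3.19e-07). HEY1, a target of BMP and Notch signalling, fell by 2.77 ± 0.18 in WT, from 96.6 and 128 CPM at passage 2 to 18.4 and 15.4 CPM at passage 4 (adjusted p = 1.29e-08).

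The E proteins TCF3, TCF4 and TCF12, which ID proteins bind, were all tested. At passage 4, 1 of the 3 was called lower, where 11.2% of all tested genes were. At passage 2 and D28, 0 were called, where 2.59% and 12.4% of all tested genes were called higher and 1.83% and 11.7% lower. TCF4 was at 163 and 161 CPM in WT NPCs at passage 2 and 398 and 453 CPM at passage 4, a rise of 1.39 ± 0.11 (adjusted p = 1.35e-07). In dKO it was at 155 and 154 CPM and then 163 and 154 CPM.

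**Figure D4:**
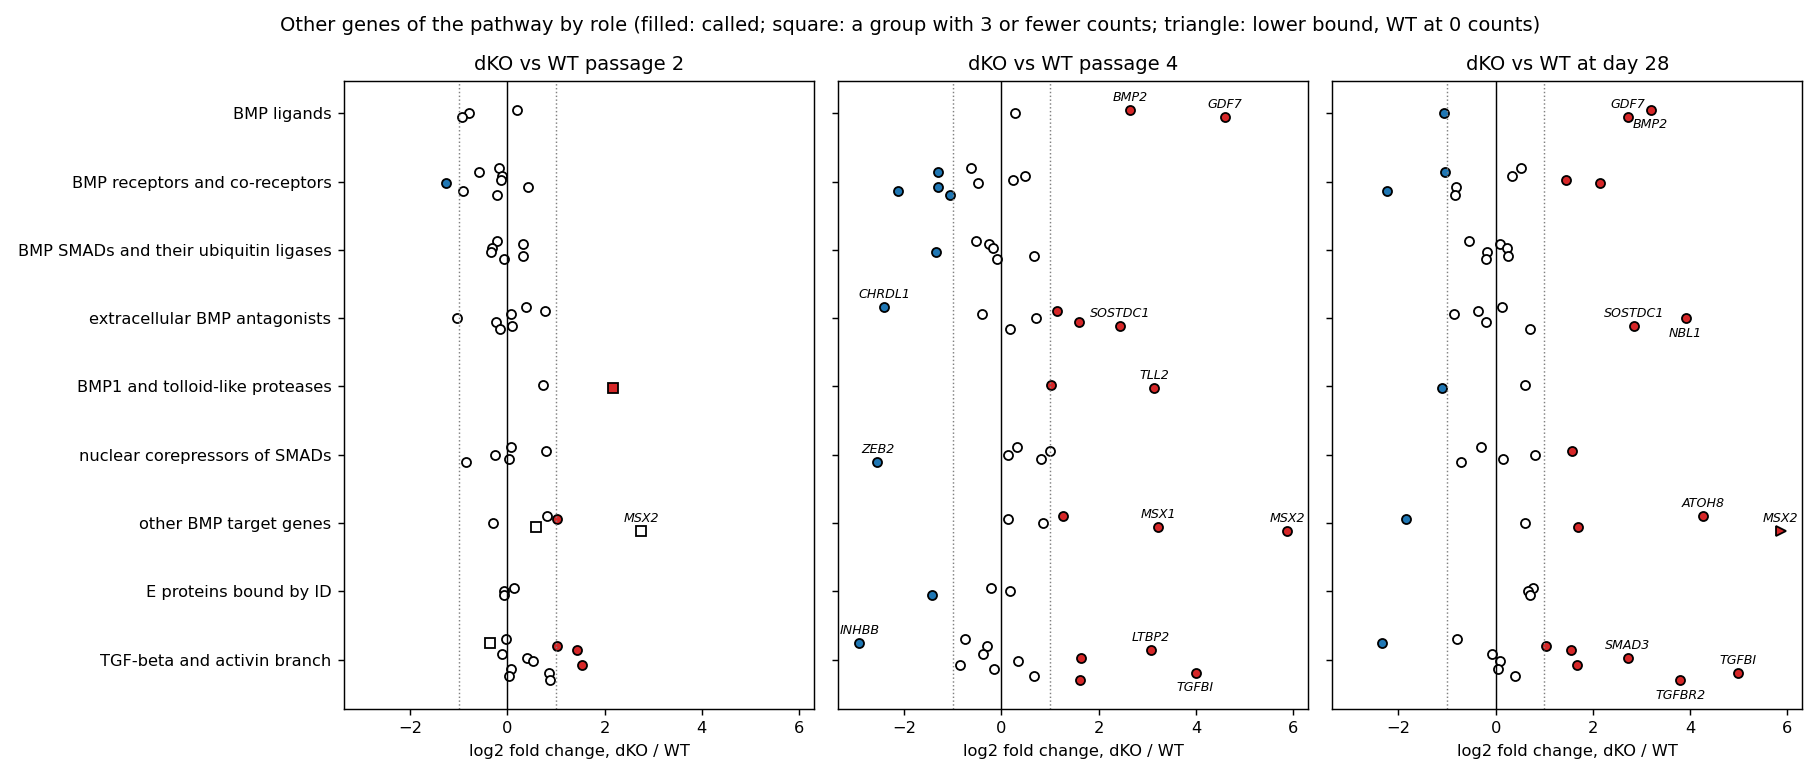
Log2 fold change of dKO against WT at passage 2, passage 4 and D28 for each tested gene of the other BMP pathway lists and of the TGF-β and activin branch, grouped by role. Red symbols were called higher and blue symbols lower, open symbols were not called, and squares mark a group with 3 or fewer counts. The triangle is MSX2 at D28 with WT set to 3 counts, a bound for counting error only. At passage 4 the called BMP receptors and co-receptors all lie below 0, and the called BMP ligands lie above it.

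The TGF-β and activin branch, which uses SMAD2 and SMAD3, was counted apart. Of its 12 tested genes, dKO against WT gave 3 higher and 0 lower at passage 2, where 2.59% and 1.83% of all tested genes were called. It gave 4 higher and 1 lower at passage 4, against 11.1% and 11.2%, and 6 higher and 1 lower at D28, against 12.4% and 11.7%. The median log2 fold changes of the 12 genes were 0.46, 0.09 and 0.72 in that order. TGFB2, a ligand, was at 27.4 and 61.9 CPM in WT against 126 and 149 CPM in dKO at passage 2, a rise of 1.53 ± 0.29 (adjusted p = 0.0158) that was 2.32 without WT replicate 2. At passage 4 its order was turned around, with 54.8 and 59.1 CPM in WT against 30.7 and 32.6 CPM in dKO, a log2 fold change of -0.85 ± 0.26 that was not called. LTBP2, an extracellular matrix protein, was at 35.2 and 61.9 CPM and 125 and 150 CPM, a rise of 1.43 ± 0.25 (adjusted p = 0.00604). TGFBI, a secreted matrix protein induced by TGF-β, was at 5.68 and 10.3 CPM in WT against 136 and 125 CPM in dKO at passage 4, and rose by 3.99 ± 0.50 (adjusted p = 0.000297). At D28 it was at 0.840 and 0.905 CPM in WT against 41.7 and 16.6 CPM in dKO, and rose by 4.98 ± 0.66 (adjusted p = 0.000334).

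INHBB, which codes for an activin subunit, was the single gene of the branch called lower at passage 4 and at D28, with 150 counts in WT against 24 in dKO at passage 4, and fell by 2.92 ± 0.32 (adjusted p = 1.69e-06). At D28 it was at 3.0 and 3.72 CPM in WT against 0.485 and 0.772 CPM in dKO.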

How the data were processed

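RNA was sequenced from 12 H1-derived samples. The authors extracted RNA with TRIzol, prepared TruSeq libraries, aligned reads to hg38 with HISAT2 2.0.4, sorted them with SAMtools 1.3.1 and counted them per Ensembl gene with HTSeq 0.6.0. They deposited raw counts for 58302 genes, 1 table per sample. The annotation release and the strand setting are not given in the sources used here. GENCODE 44 matched 98.7% of the genes and gave symbols and lengths, and RefSeq gave the promoter windows. The length of a gene, also where called transcript length, is that of all its annotated exons merged. It can exceed the length of any of its transcripts.

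The deposited counts were tested in R 4.3.3 with edgeR 4.0.16 (TMM, robust quasi-likelihood fit of 6 group means) for genes with 20 or more counts on average. A call required a fold change above 2 and an unadjusted p below 0.05. The adjusted p-values are Benjamini-Hochberg values over all 13454 tested genes. SE is the log2 fold change divided by the square root of F. Where a group held 1 to 3 counts, the ratio of summed counts is given with an exact 95% interval. Intervals and floors cover counting error only. Correlations used log2 CPM over all 12 samples. The script was checked on simulated counts. The labels name no batch. A pair of genes was left out of the lists and is not reported here.

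The 10 genes and all lists were chosen with earlier results of these data known. Besides the 10, the text names KDM6A, KDM6B, marker list members, the 2 genes most correlated with each of the 10 and, from the other pathway genes, those among the 3 largest called changes in each direction of a comparison. Alternatives were DESeq2 1.42.0, an adjusted p, only the samples compared, 2 other count filters, an offset for GC content and transcript length, a replicate block, and each sample left out.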

Additional observations from a re-analysis of the deposited data

Results flagged for a closer look

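For 4 of the 10 genes, the interaction term for passage 2 to D28 was past the threshold after adjustment over all tested genes. The 10 genes had been selected after differences between the genotypes were seen in these same samples. Passing the threshold therefore describes these genes and is not a separate test. The terms, as dKO change minus WT change on the log2 scale, were 3.83 for BMP4, 3.17 for ID1, 1.80 for ID2 and 2.52 for SMAD6. Those of BMP4 and SMAD6 were 2.10 and 1.32, and no longer past the threshold, without WT replicate 2 at passage 2.

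For the change from passage 2 to passage 4, terms past the threshold in the same way were 1.90 for ID1, 2.44 for SMAD6 and -1.11 for ID2. BMP4 also passed, at 4.19, with only 3 counts in WT at passage 4. The SMAD6 term was 1.25, and not past the threshold, without the same WT sample. ID2 was the one gene of these with terms of opposite sign for the 2 intervals. Both intervals start from the same passage 2 samples, so the terms are not independent of each other, and the genes had been selected on these samples.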

How the results depend on the processing

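Of the recomputed counts of called genes, 328 stayed within 1.5 times of the reported count and 32 did not. With an adjusted p, the 10 genes gave 1 call at passage 2 (dKO against WT), and the other pathway genes gave 3 calls for the dKO change to D28.

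Requiring at least 10 counts in every sample removed genes from the test. Of the 10 genes, BMP4, GDF10, BAMBI, SMAD6 and SMAD7 were then not tested, so lower counts need not be lost calls. Those still tested, BMP7, ID1, ID2, ID3 and ID4, gave 0 calls at passage 2, 5 at passage 4 and 3 at D28 for dKO against WT. They gave 3 for WT and 1 for dKO from passage 2 to D28, and 2 for WT from passage 2 to passage 4. For the interaction they gave 3 at D28 and 2 at passage 4. The other pathway genes gave 10 at passage 4 and 6 at D28, 5 for WT and 3 for dKO to D28, 4 for dKO to passage 4, and 6 for the interaction at D28. Requiring only 1 count in any sample tested more genes, and the other pathway genes gave 7 calls at passage 2, 15 for dKO to D28 and 18 for the interaction at D28. With only the samples compared, the other pathway genes gave 5 calls for dKO to D28. Corrected for GC content and transcript length, the 10 genes gave 1 call for dKO to D28, as they did with that correction and the replicate block together; the cause was not tested.

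Leaving out single samples gave 1 to 5 calls among the 10 genes at passage 2, 1 to 3 for dKO to D28, 3 to 6 for WT to passage 4, 2 to 7 for the interaction at D28 and 2 to 6 for that at passage 4. For the other pathway genes it gave 0 to 6 at passage 2 and 5 to 10 for dKO to D28. GDF10 had a range of -3.20 to 0.29 for WT to passage 4 and -0.46 to 3.03 for its interaction, the sign changing in each case without WT replicate 2 at passage 2. The interaction of GDF7 at passage 4, 5.54 with all samples, ranged from -1.04 without that sample to 11.18 without dKO replicate 2 at passage 2, which leaves dKO with 0 counts there.

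Replicate numbers are shared between groups but deviations of same-numbered samples did not go together (mean correlation 0.0177 over 15 pairs, -0.0555 to 0.182). With the replicate block, 18 of 18 counts stayed within 1.5 times. BMP4 at passage 2 was then called, at 1.18, and the interaction of BAMBI at D28 was no longer called, at 3.01. Depth limits the passage 2 comparisons most, where 3 counts are 2.12 to 3.92 CPM.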
